A study of Mus musculus with 16 samples.

Results

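The genes described here are 37 genes of B cell receptor signalling, picked by name from the 48593 genes of the count table. The products of 28 of them carry or amplify the signal, and they are called activating below. The products of 7 restrain it and are called inhibitory. The other two, Lyn and Grb2, act in both directions and are counted apart. All 37 genes passed the filter on low counts that left 16606 genes for testing.

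The B cell receptor is a membrane immunoglobulin paired with the signalling chains Cd79a and Cd79b, whose tails are phosphorylated by Src family kinases such as Lyn, Fyn and Blk when antigen binds. The kinases Syk and Btk then act through the adaptor Blnk on the lipase Plcg2, which opens the calcium route to the NFAT factors and the protein kinase C route to NF-kB, while PI3K feeds Akt1. Inhibitory receptors such as Cd22 and Cd72 bring the phosphatase Ptpn6 to the membrane and damp the signal. Germinal centre B cells use the receptor both to signal and to take up the antigen that they present to T cells, and their receptor signalling is known to be dampened compared with that of naive B cells.

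Crebbp encodes a histone acetyltransferase and transcriptional coactivator that is often mutated in lymphomas of germinal centre origin. RNA was sequenced from splenic germinal centre B cells, sorted as B220+ PNA+ CD95+ cells from mice given sheep red blood cells, which all groups received. The KO group (3 libraries) was homozygous for a Crebbp knockout confined to germinal centre cells, and its control was the wild type of the same cohort (KO cohort WT, 3 libraries). The RH HET group (4 libraries, 1 knock-in allele) and the RH HOMO group (3 libraries, 2 knock-in alleles) carried a conditional allele that replaces an arginine of Crebbp by histidine, and their control was the wild type of that cohort (RH cohort WT, 3 libraries). The labels name neither the Cre driver nor the age of the mice, and they do not say whether each library came from a mouse of its own, so p-values reflect only how far these libraries spread, which may be technical. They give 12 days after immunisation in one place and 10 days in another. Groups were taken from the titles; RH cohort WT 1 is titled RH wild type but carries the batch tag of the KO cohort.

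Library totals ran from 41362856 to 93040297 counts. All levels are in CPM, counts set relative to the scaled library total. On the first principal component RH HOMO 2 scored 77.1 and RH cohort WT 1 scored 50.7, outside the range of the remaining 14 libraries (-40.7 to 24.3). The germinal centre B cell list (10 genes) summed to between 2618 and 3895 CPM in every library, and the T cell list (13 genes) to between 2.84 and 7.57 CPM, with Themis at 0 in all 16 libraries. Crebbp itself was counted at 123, 137 and 108 CPM in KO libraries, against 131, 127 and 149 CPM in KO cohort WT libraries (log2 difference -0.15, edgeR quasi-likelihood test with Benjamini-Hochberg adjustment, adjusted p = 0.826). Which exons the knockout removes is not stated in the labels, and counts over the entire gene therefore check neither genotype nor protein.

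Per kilobase of exon union, the receptor chains had the highest levels of the 37 genes in wild type cells. The union takes in all annotated exons and can be longer than the mRNA, so the order below depends on it. Ptprc had a mean of 1632 CPM in KO cohort WT and 1357 CPM in RH cohort WT, beside 1347 and 1414 CPM for Cd22. Over its exon union of 18.3 kb, the Ptprc median was 83.6 CPM per kb. Over the 6 wild type libraries the median was 677 CPM per kb for Cd79b (range 615 to 816) and 654 for Cd79a (range 483 to 762), and these ranges overlapped. Next came 2 inhibitory genes, the phosphatase gene Ptpn6 at 291 CPM per kb (range 262 to 339) and the sialic acid binding receptor gene Cd22 at 276 CPM per kb (range 252 to 288), whose ranges overlapped each other but lay below those of the receptor chains. The adaptor Grb2 followed at 199.8 CPM per kb (range 185 to 211) and the lipase Plcg2 at 185 CPM per kb (range 169.8 to 202). Among the kinases, Syk had a median of 112 CPM per kb, Blk 95.3, Lyn 82.3, Btk 77.4 and Fyn 21.0, and the range of Fyn (19.1 to 24.3) lay below the ranges of the other kinases. The exchange factor gene Vav1 stood at 70.2 CPM per kb, its relative Vav2 at 22.4 and Vav3 at 0.154. The inhibitory phosphatase gene Ptpn22 was the other gene near the bottom, at 0.654 CPM per kb (range 0.453 to 1.08), so fold differences of Vav3 and Ptpn22 concern very low levels. Over all 16 libraries the highest value was 3.74 times the lowest for Vav3, 3.12 for Ptpn22, 2.97 for Nfatc3, 2.77 for Cd72 and 2.43 for Prkcb, and it was 1.28 times for Akt1 and 1.29 times for Grb2 and Lyn.

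**Figure D1:**
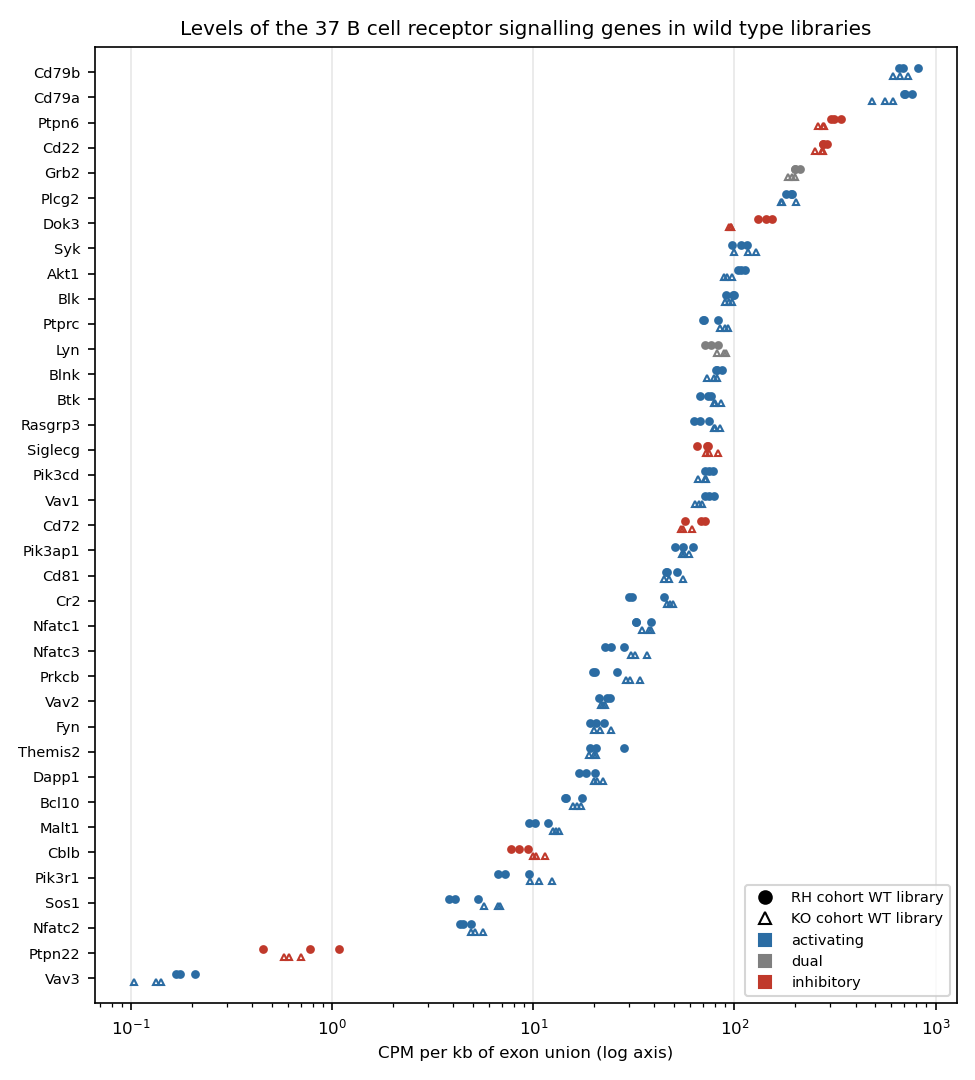
Level of each of the 37 genes per kilobase of exon union (CPM per kb, log axis) in the 6 wild type libraries, filled circles for RH cohort WT and open triangles for KO cohort WT, coloured by role. Cd79b and Cd79a lead at medians of 677 and 654 CPM per kb, and Ptpn22 and Vav3 close the order at 0.654 and 0.154.

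None of the 6 genes at the core of the complex (Cd79a, Cd79b, Syk, Btk, Cd22 and Ptpn6) passed the test in any genotype. Cd79a, which carries the immunoglobulin to the surface and signals through its tail, had 665, 907 and 779 CPM in KO libraries, against 704, 817 and 891 CPM in KO cohort WT libraries. Cd79a had 1037, 1060.5, 1069.6 and 927 CPM in RH HET and 1038, 1171 and 932 CPM in RH HOMO libraries, against 1109.5, 1024 and 1015 CPM in RH cohort WT libraries. Within each cohort the genotypes overlapped for Cd79a, and the KO cohort as a whole lay lower than the RH cohort. Its partner Cd79b had 817, 941 and 917 CPM in KO libraries, against 879, 953 and 1038 CPM in KO cohort WT libraries. Cd79b had 1055, 1169.7, 1043 and 977 CPM in RH HET and 1089, 1434 and 984 CPM in RH HOMO libraries, against 1168, 937 and 983 CPM in RH cohort WT libraries. The groups overlapped here too, with RH HOMO 2 the highest of all 16 libraries.

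Syk, the kinase that binds the phosphorylated receptor tails, had 1001, 1089 and 1100.2 CPM in KO libraries, against 931, 1095 and 1203 CPM in KO cohort WT libraries. Syk had 1086, 949, 1103 and 1063 CPM in RH HET and 959, 893 and 963 CPM in RH HOMO libraries, against 908, 1005 and 1086 CPM in RH cohort WT libraries. No genotype was clear of its wild type for Syk. Btk, the kinase that activates Plcg2, had 205, 233 and 242 CPM in KO libraries, against 251, 248 and 270.0 CPM in KO cohort WT libraries. Btk had 240.1, 212, 239 and 240.5 CPM in RH HET and 253, 249.8 and 237 CPM in RH HOMO libraries, against 213, 232 and 239.7 CPM in RH cohort WT libraries. All 3 KO libraries lay below all 3 of their wild type for Btk, and the RH groups overlapped theirs.

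On the inhibitory side, Cd22 had 1280.0, 1244 and 1250.0 CPM in KO libraries, against 1269, 1393 and 1378 CPM in KO cohort WT libraries. Cd22 had 1323, 1608, 1523 and 1321 CPM in RH HET and 1333, 1185 and 1406 CPM in RH HOMO libraries, against 1394, 1451 and 1396 CPM in RH cohort WT libraries. The groups overlapped in both cohorts. Ptpn6, the phosphatase that Cd22 recruits, had 685, 747 and 799 CPM in KO libraries, against 733, 774 and 784 CPM in KO cohort WT libraries. Ptpn6 had 843, 897, 827 and 820.3 CPM in RH HET and 852, 926 and 843 CPM in RH HOMO libraries, against 949, 872 and 844 CPM in RH cohort WT libraries, again with overlap throughout. Over these 6 genes and the 3 comparisons of a genotype with its wild type, the 18 log2 differences lay between -0.18 and 0.18, their 95% intervals between -0.38 and 0.46, and the smallest adjusted p was 0.426 (edgeR quasi-likelihood, Benjamini-Hochberg).

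**Figure D2:**
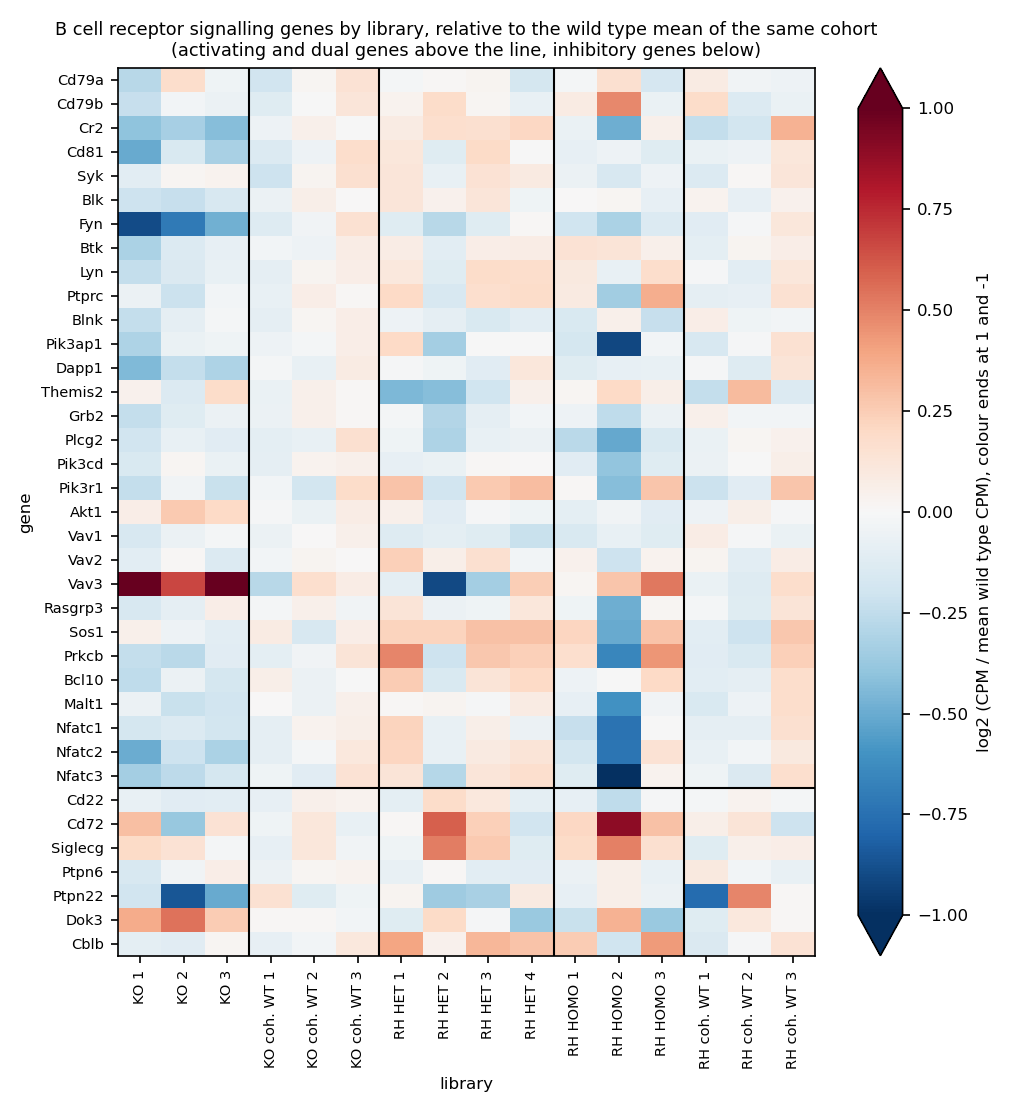
Log2 ratio of each library's CPM to the mean wild type CPM of its own cohort, for the 37 genes (rows; activating and dual genes above the line, inhibitory genes below) and 16 libraries (columns, grouped by genotype). Fyn is lowest in the 3 KO libraries, and RH HOMO 2 is low across many activating genes and high for Cd72.

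In KO cells edgeR called 1 of the 37 genes, Fyn, which fell, and 0 rose. DESeq2 and limma-voom called Fyn and a few more, which are named with the inhibitory genes. Over all tested genes 0.729% were called lower and 0.572% higher in KO at an adjusted p under 0.05, and 1 call in 37 is too few to be read against those shares. Fyn encodes a Src family kinase that phosphorylates receptor tails alongside Lyn and Blk (Fyn, ENSMUSG00000019843, chr10:39368855-39565381, plus strand, GRCm38). It had 51.4, 58.6 and 68.5 CPM in KO libraries, against 87.5, 93.3 and 106 CPM in KO cohort WT libraries, and the highest KO library lay below the lowest wild type library. The means were 59.5 ± 8.60 CPM in KO and 95.6 ± 9.51 CPM in KO cohort WT (SD, n = 3 each), a log2 difference of -0.68 ± 0.11 (SE; 95% interval -0.92 to -0.45; edgeR quasi-likelihood test, Benjamini-Hochberg adjusted p = 0.00689). Without KO 1 the call was lost, at -0.58 and an adjusted p of 0.0525 from the same test, and in the other 14 alternatives it held. In sorted bulk cells, fewer cells with a transcript and less of it per cell cannot be told apart.

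Fyn is also known as a kinase of T cells. The 13 T cell genes summed to between 2.84 and 4.16 CPM in KO, against 2.98 to 3.87 CPM in KO cohort WT, with Cd3e, Cd3g and Bcl11b at 0 in all 3 KO libraries and 5 of the 6 tested T cell genes positive. The dendritic cell list (8 genes, nearly all of it Flt3) summed to 35.4 to 39.1 CPM in KO, against 47.1 to 58.2 CPM in KO cohort WT, with 1 gene called lower. In the same libraries the light zone list (10 genes) summed to 987 to 1138 CPM in KO, against 1188 to 1383 CPM in KO cohort WT, with 8 of 10 genes negative and 0 called. Sums also lay apart for the germinal centre B cell list (3409 to 3617 CPM in KO, against 3685 to 3895 CPM in KO cohort WT; 1 gene called higher and 1 lower) and the plasma cell list (777 to 863 CPM in KO, against 918.8 to 919.4 CPM in KO cohort WT). At low levels the same held for the stroma list (3.96 to 5.83 CPM in KO, against 2.49 to 3.55 CPM in KO cohort WT) and the NK cell list (0.354 to 0.401 CPM in KO, against 0.621 to 1.03 CPM in KO cohort WT), with 0 called in these 3 lists. Single genes weighed heavily in some sums. Within the light zone list, Cd52 was at 267 to 359 CPM in KO, against 447 to 502 CPM in KO cohort WT. Within the plasma cell list, Jchain was at 388 to 410 CPM in KO, against 468 to 500 CPM in KO cohort WT. Of the 7 tested plasma cell genes 4 were positive, with a median log2 difference of 0.019. The part of these lists in the Fyn difference was not tested.

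In the RH cohort Fyn had 83.1, 74.4, 82.9 and 91.1 CPM in RH HET libraries and 78.6, 72.6 and 82.2 CPM in RH HOMO libraries, against 83.3, 89.5 and 97.8 CPM in RH cohort WT libraries. RH HOMO lay just below its wild type without overlap, and RH HET overlapped it. The log2 differences were -0.12 ± 0.11 in RH HET (SE; edgeR adjusted p = 0.811) and -0.21 ± 0.11 in RH HOMO (adjusted p = 0.458). For Fyn the effect in RH HOMO minus that in KO was 0.47 ± 0.16 (95% interval 0.14 to 0.81; edgeR adjusted p = 0.287), so the Fyn differences in KO and in RH HOMO cells were not shown to differ.

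The other activating genes in KO cells had mostly small negative differences. Of the 28 activating genes, 25 had a negative log2 difference in KO, and of all 37 genes 31 did (83.8%), where 50.3% of all tested genes were negative. The median over the 37 genes was -0.11, beside -0.0021 over all tested genes. The rest of the pathway had no such lean in KO. Of 48 other components, 26 differences were positive and 22 negative, with a median of 0.016. Over all 84 other pathway genes tested, 43 were positive and 41 negative. In 12 of the 37 genes all KO libraries lay below all KO cohort WT libraries (32.4%), namely Cr2, Cd81, Blk, Fyn, Btk, Dapp1, Prkcb, Malt1, Nfatc1, Nfatc2, Nfatc3 and Ptpn22. In 2 genes, Vav3 and Dok3, all KO libraries lay above (5.41%). Over all tested genes 12.7% lay apart in each direction. At an unadjusted p under 0.05, 6 of the 37 were lower and 3 higher, against 5.65% and 6.47% of all tested genes.

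Dapp1, an adaptor that binds PI3K lipid products, had 63.9, 73.7 and 70.2 CPM in KO libraries, against 85.9, 82.6 and 92.0 CPM in KO cohort WT libraries. All KO values were lower, and the log2 difference was -0.33 ± 0.09 (SE; edgeR adjusted p = 0.0989), short of the threshold. Both measured coreceptor genes had negative differences that did not pass. Cr2, the complement receptor that lowers the threshold for antigen, had 294, 309 and 289 CPM in KO libraries, against 375, 402 and 387 CPM in KO cohort WT libraries (-0.38 ± 0.14; edgeR adjusted p = 0.234). Cd81, a tetraspanin of the coreceptor complex, had 100.03, 127 and 113 CPM in KO libraries, against 129, 137 and 159.5 CPM in KO cohort WT libraries (-0.32 ± 0.11; edgeR adjusted p = 0.191). For Cr2 and Cd81 alike the groups did not overlap, and for Cd81 the highest KO library nearly reached the lowest wild type library.

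Among the remaining kinases and factors, Blk, a Src family kinase of B cells, had 218, 214 and 226 CPM in KO libraries, against 242, 262 and 252 CPM in KO cohort WT libraries (-0.20 ± 0.08; edgeR adjusted p = 0.257). Nfatc2, a calcium-regulated transcription factor, had 39.2, 47.8 and 44.3 CPM in KO libraries, against 51.8, 54.5 and 59.2 CPM in KO cohort WT libraries (-0.33 ± 0.16; edgeR adjusted p = 0.405). Its relatives Nfatc1 (-0.17 ± 0.14) and Nfatc3 (-0.26 ± 0.19) also had no overlap between groups and did not pass. The exchange factor gene Vav3 went against this direction at a very low level, with 2.19, 1.20 and 1.53 CPM in KO libraries, against 0.621, 0.846 and 0.795 CPM in KO cohort WT libraries (1.11 ± 0.32; edgeR adjusted p = 0.116). Akt1, the kinase downstream of PI3K, had 397, 455 and 434 CPM in KO libraries, against 375, 362 and 399 CPM in KO cohort WT libraries, with overlap (0.18 ± 0.08; edgeR adjusted p = 0.387).

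A further 11 activating or dual genes had log2 differences between -0.32 and 0.22 in the 3 genotypes, and none passed by edgeR. Among the adaptors, Blnk, the scaffold of the Syk signal, was at -0.11 ± 0.09 in KO, -0.10 ± 0.08 in RH HET and -0.10 ± 0.09 in RH HOMO, and Pik3ap1, which recruits PI3K, was at -0.13 ± 0.17, -0.02 ± 0.16 and -0.32 ± 0.17 in the same genotypes. The PI3K regulatory subunit gene Pik3r1 was at -0.16 ± 0.17 in KO, 0.18 ± 0.16 in RH HET and -0.02 ± 0.17 in RH HOMO. Ptprc, the CD45 phosphatase that keeps Src family kinases active, was at -0.10 ± 0.14 in KO, 0.11 ± 0.14 in RH HET and 0.06 ± 0.14 in RH HOMO, while Lyn, which both starts and restrains the signal, was at -0.15 ± 0.10, 0.09 ± 0.09 and 0.07 ± 0.10. In the route to NF-kB, Prkcb was at -0.20 ± 0.20 in KO, 0.22 ± 0.19 in RH HET and 0.05 ± 0.20 in RH HOMO. Its downstream partners Bcl10 and Malt1 were at -0.16 ± 0.11 and -0.16 ± 0.12 in KO, 0.11 ± 0.11 and 0.03 ± 0.11 in RH HET, and 0.05 ± 0.11 and -0.22 ± 0.12 in RH HOMO. The exchange factor genes Vav2 and Rasgrp3 were at -0.08 ± 0.09 and -0.06 ± 0.12 in KO, and the adaptor Grb2 at -0.14 ± 0.09. In the RH cohort Grb2 was at -0.10 ± 0.09 in RH HET and -0.12 ± 0.09 in RH HOMO, and Vav2 at 0.11 ± 0.08 and -0.04 ± 0.09.

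The inhibitory genes showed no common direction in KO cells. Of 7, 4 were negative and 3 positive, with a median of -0.04, and 0 passed. Dok3, an adaptor that restrains calcium signalling, had 304, 341 and 281 CPM in KO libraries, against 237, 237 and 230.1 CPM in KO cohort WT libraries. Every KO value of Dok3 was higher, but the log2 difference of 0.39 ± 0.16 did not pass (SE; edgeR adjusted p = 0.295). Cd72 (0.05 ± 0.20) and the sialic acid binding receptor gene Siglecg (0.11 ± 0.14) overlapped between the groups. The ubiquitin ligase gene Cblb was at -0.06 ± 0.13, and the phosphatase gene Ptpn22 was at -0.49 ± 0.25 from levels of 3.73, 2.35 and 3.0 CPM in KO libraries, against 4.74, 3.91 and 4.13 CPM in KO cohort WT libraries. Other tools called a few more genes: DESeq2 added Vav3 (higher) and Dapp1 (lower), and limma-voom with quality weights added Vav3 and Dok3 (higher) and Cr2 and Dapp1 (lower). The shares of all tested genes that these tools called are not given here.

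**Figure D3:**
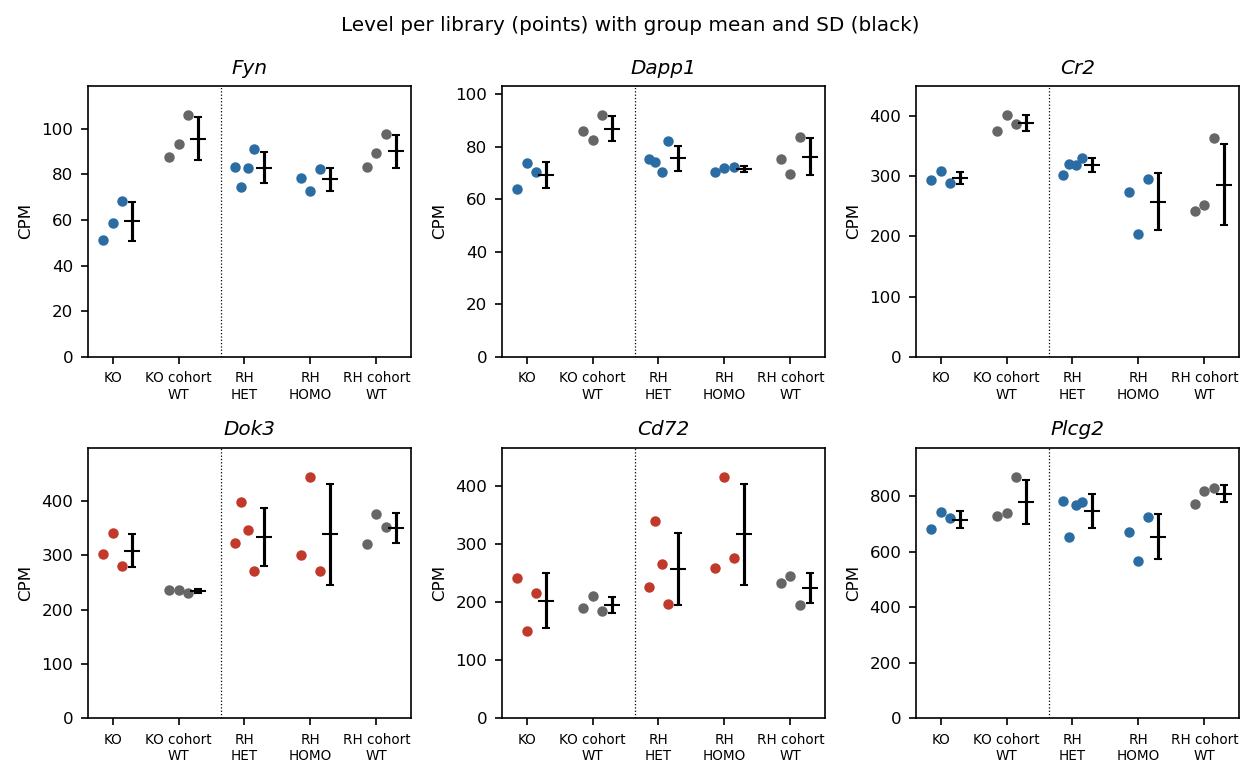
CPM in each library (points) with group mean and SD (black bars) for Fyn, Dapp1, Cr2, Dok3, Cd72 and Plcg2, the KO cohort left and the RH cohort right of the dotted line; wild type points are grey. The 3 KO points of Fyn (51.4 to 68.5 CPM) lie below all KO cohort WT points (87.5 to 106 CPM), and the highest Cd72 point is RH HOMO 2 at 417 CPM.

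The 250 bases upstream of a RefSeq start (GRCm38.p6) are shown for the called gene Fyn and for Dok3 and Cd72, the inhibitory genes with the largest positive differences in KO and in RH HOMO cells, because CREBBP is known as a partner of CREB, which binds TGACGTCA and its core TGACG. Capitals mark the GC box GGGCGG, read here as CCGCCC, in Fyn and the TGACG core, read as CGTCA, in Cd72; Dok3 held neither motif.
Fyn: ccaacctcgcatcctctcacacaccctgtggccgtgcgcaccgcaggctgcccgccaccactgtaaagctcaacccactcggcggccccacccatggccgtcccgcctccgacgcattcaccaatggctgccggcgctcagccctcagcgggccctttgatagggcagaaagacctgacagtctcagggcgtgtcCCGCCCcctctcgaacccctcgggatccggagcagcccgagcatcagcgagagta
Dok3: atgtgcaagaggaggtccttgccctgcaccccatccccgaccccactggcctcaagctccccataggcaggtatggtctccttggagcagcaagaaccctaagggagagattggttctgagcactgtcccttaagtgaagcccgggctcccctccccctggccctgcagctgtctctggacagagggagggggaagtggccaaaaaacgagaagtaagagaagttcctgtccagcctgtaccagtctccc
Cd72: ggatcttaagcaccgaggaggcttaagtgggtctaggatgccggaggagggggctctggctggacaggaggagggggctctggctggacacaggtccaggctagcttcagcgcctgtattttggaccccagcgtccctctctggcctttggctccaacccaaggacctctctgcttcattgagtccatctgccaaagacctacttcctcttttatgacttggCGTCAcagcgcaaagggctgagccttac
These windows are chr10:39369549-39369798 (plus strand) for Fyn, chr13:55528539-55528788 (minus strand) for Dok3 and chr4:43454627-43454876 (minus strand) for Cd72. In GENCODE M21, the source of the gene positions here, Fyn begins at 39368855 and Dok3 at 55529296. The Fyn and Dok3 windows, set by RefSeq starts, therefore lie inside those genes. Motifs were searched on both strands, and the core lies within the full site. RefSeq windows were matched for 32 of the 37 genes, 46 windows in all; Cd79b, Blk, Lyn, Malt1 and Nfatc1 were not matched. The full site TGACGTCA was in 0 of the 46 windows and in 1.55% of the 32851 windows of all genes. The core TGACG was in 3 windows (6.52%), those of Cd72, Nfatc3 and Pik3r1, and in 17.8% of all windows. The GC box was in 19 windows (41.3%) and in 32.7% of all windows. These are matches of letters and not binding sites.

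In RH HET cells none of the 37 genes was called, by edgeR, DESeq2 or limma-voom, and at an unadjusted p under 0.05 1 was higher and 0 lower. Over all tested genes 0.012% were called higher and 0.00602% lower at an adjusted p under 0.05, and 3.48% and 3.7% had an unadjusted p under 0.05 in these directions (7.18% in either), so few calls could be seen in this comparison. Of the 37 differences 22 were positive (59.5%, against 48.8% of all tested genes), with a median of 0.04 beside -0.0069 over all tested genes. Of the 48 other components of the pathway, 35 were positive and 13 negative in RH HET. The libraries did not overlap in 2 genes, both lower in RH HET, the adaptor gene Blnk and Vav1 (5.41%, against 3.52% of all tested genes).

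Cblb, the ligase that marks signalling proteins for removal, had 118, 92.0, 113 and 109 CPM in RH HET libraries, against 80.8, 88.8 and 98.6 CPM in RH cohort WT libraries. The groups overlapped, with RH HET 2 inside the wild type range, and the log2 difference was 0.27 ± 0.12 (SE; edgeR adjusted p = 0.689). Sos1, an exchange factor for Ras, had 54.5, 54.4, 57.3 and 57.3 CPM in RH HET libraries, against 43.4, 40.4 and 56.3 CPM in RH cohort WT libraries (0.26 ± 0.15; edgeR adjusted p = 0.751). The RH HET values of Sos1 lay above RH cohort WT 1 and 2 and on both sides of RH cohort WT 3. Themis2, an adaptor that lowers the activation threshold in B cells, had 50.9, 51.8, 60.6 and 72.1 CPM in RH HET libraries, against 58.9, 86.7 and 63.3 CPM in RH cohort WT libraries (-0.24 ± 0.14; edgeR adjusted p = 0.745). Vav1, the Vav gene with the highest level per kilobase here, had 253, 258, 254 and 238 CPM in RH HET libraries, against 291, 275 and 264 CPM in RH cohort WT libraries (-0.14 ± 0.07; edgeR adjusted p = 0.719). The Vav1 ranges were narrowly apart, and those of Themis2 overlapped. Without RH cohort WT 1 the differences were 0.21 for Cblb, 0.22 for Sos1, -0.34 for Themis2 and -0.10 for Vav1, the median of the 37 genes was 0.01, and none was called. Themis2 was at -0.04 without RH cohort WT 2, and Sos1 at 0.42 without RH cohort WT 3. With the mitochondrial share as a term, Cblb was at 0.01 and Sos1 at 0.0081.

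In RH HOMO cells none of the 37 genes was called by edgeR or DESeq2, and limma-voom with quality weights called Plcg2 lower. At an unadjusted p under 0.05, 1 of the 37 was higher (6.38% of all tested genes) and 3 were lower (6.56%). At an adjusted p under 0.05, 0.578% of all tested genes were called higher and 0.994% lower. The differences were negative in 25 of 37 genes (67.6%, against 47.3% of all tested genes), with a median of -0.05 beside 0.016 over all tested genes. The 48 other components of the pathway leaned the other way in RH HOMO, with 18 negative and 30 positive. All RH HOMO libraries lay below all RH cohort WT libraries in 5 genes (Fyn, Grb2, Plcg2, Pik3cd and Vav1; 13.5%, against 8.03% of all tested genes) and above them in 2, the inhibitory receptor genes Cd72 and Siglecg (5.41%, against 7.39%).

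Plcg2, the lipase that produces the calcium signal, had 669, 566 and 726 CPM in RH HOMO libraries, against 773, 819.7 and 830.5 CPM in RH cohort WT libraries. The groups did not overlap, and the log2 difference was -0.31 ± 0.11 (SE; 95% interval -0.53 to -0.08; edgeR adjusted p = 0.189; limma-voom adjusted p = 0.0325). Pik3cd, the catalytic PI3K subunit of lymphocytes, had 433, 356 and 429 CPM in RH HOMO libraries, against 449, 466 and 487 CPM in RH cohort WT libraries (-0.20 ± 0.09; edgeR adjusted p = 0.341). Nfatc1 had 219, 154 and 256 CPM in RH HOMO libraries, against 242, 241 and 287 CPM in RH cohort WT libraries (-0.29 ± 0.14; edgeR adjusted p = 0.382). For all 3 genes RH HOMO 2 was the lowest library, and Nfatc1 overlapped its wild type in RH HOMO 3. Without RH HOMO 2 the values were -0.21 for Plcg2, -0.12 for Pik3cd and -0.11 for Nfatc1, the median of the 37 genes was -0.04, and none was called.

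Cd72 and Siglecg, 2 of the 3 inhibitory receptor genes, had positive differences in RH HOMO that did not pass. Cd72, which recruits Ptpn6 through its tail, had 259, 417 and 276 CPM in RH HOMO libraries and 227, 339.5, 265 and 197 CPM in RH HET libraries, against 234, 245 and 195 CPM in RH cohort WT libraries. The RH HOMO values lay above the wild type, with RH HOMO 2 far above the rest, while RH HET spread on both sides. The log2 difference was 0.50 ± 0.20 in RH HOMO (SE; edgeR adjusted p = 0.289) and 0.25 without RH HOMO 2. Of the exon bases of Cd72, 41.6% are shared with Tesk1 on the other strand, whose reads cannot be told apart from its own here. Siglecg had 388, 482 and 381 CPM in RH HOMO libraries, against 312, 353 and 356 CPM in RH cohort WT libraries (0.29 ± 0.14; edgeR adjusted p = 0.398; 0.17 without RH HOMO 2). The other 5 inhibitory genes lay between -0.11 and 0.18. The light zone list summed to 1478 to 1589 CPM in RH HOMO, against 1045 to 1450 CPM in RH cohort WT, and the macrophage or monocyte list (15 genes) to 20.5 to 33.7 CPM in RH HOMO, against 18.8 to 24.6 CPM in RH cohort WT with overlap. Sums lay apart for the germinal centre B cell list (2618 to 3222 CPM in RH HOMO, against 3251 to 3676 CPM in RH cohort WT; 8 of 10 genes negative, 1 called higher and 1 lower), the dark zone list (2351 to 2543 CPM in RH HOMO, against 2648 to 2757 CPM in RH cohort WT; 9 of 10 negative, 0 called) and the stroma list (5.58 to 6.18 CPM in RH HOMO, against 3.77 to 5.03 CPM in RH cohort WT). The light zone list had 9 of 10 genes positive and 1 called higher. The T cell list summed to 4.45 to 7.57 CPM in RH HOMO, against 3.90 to 4.89 CPM in RH cohort WT, with overlap and 1 gene called higher. The follicular naive B cell list (12 genes, among them Cr2) summed to 1200 to 1369 CPM in RH HOMO, against 1118 to 1469 CPM in RH cohort WT. In that list 8 genes were positive, 4 negative and 1 called higher. The part of these lists in the RH HOMO differences was not tested.

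**Figure D4:**
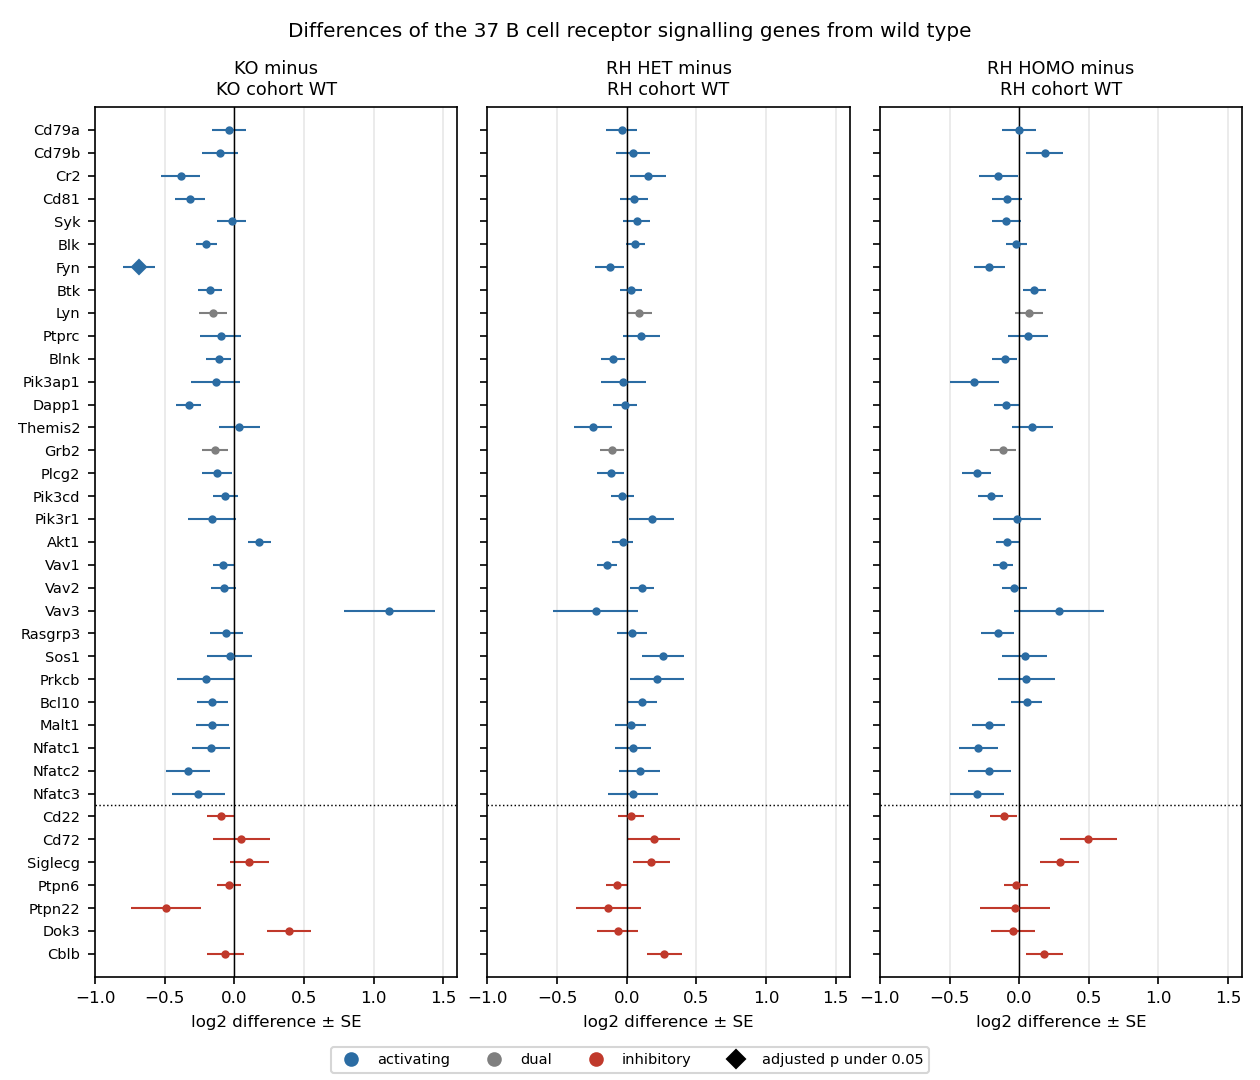
Log2 difference ± SE (edgeR) of each of the 37 genes in KO, RH HET and RH HOMO against the wild type of the same cohort, activating and dual genes above the dotted line and inhibitory genes below. Fyn in KO, the diamond at -0.68, is the 1 difference with an adjusted p under 0.05.

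RH HOMO was also set against RH HET, and the RH HOMO effect against the KO effect. RH HOMO minus RH HET gave 0 calls among the 37 genes by edgeR, and 0% of all tested genes were called in either direction. At an unadjusted p under 0.05, 1 of the 37 was higher (Themis2) and 3 lower (Cr2, Malt1 and Nfatc1), beside 5.6% and 5.78% of all tested genes; DESeq2 and limma-voom gave 0 calls. All RH HOMO libraries lay below all RH HET libraries in 3 genes, Cr2, Pik3cd and Malt1 (8.11%, against 4.28% of all tested genes), and above them in 0 (against 3.78%). Without RH HOMO 2 the differences between RH HOMO and RH HET were smaller, at -0.17 for Cr2, -0.09 for Malt1, -0.16 for Nfatc1 and -0.09 for Pik3cd, against -0.30 ± 0.13, -0.25 ± 0.11, -0.34 ± 0.13 and -0.17 ± 0.08 with it. Themis2 was at 0.27 without RH HOMO 2 and at 0.34 ± 0.14 with it. The contrast of the effect in RH HOMO with that in KO also gave 0 calls by edgeR and DESeq2 (0.0783% of all tested genes were called higher and 0.163% lower), with 2 of the 37 higher (Fyn and Btk) and 1 lower (Akt1) at an unadjusted p under 0.05, beside 4.42% and 5.11% of all tested genes (9.53% in either direction). Limma-voom called Akt1 and Dok3 lower in that contrast. Dok3 was at -0.44 ± 0.22 (edgeR adjusted p = 0.554; -0.70 without RH HOMO 2) and Akt1 at -0.26 ± 0.12 (edgeR adjusted p = 0.473). The wild type levels of Dok3 differed between the cohorts and enter this contrast.

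Between the wild types themselves, Dok3 was the 1 gene called among the 37. It had 321, 376 and 353 CPM in RH cohort WT libraries, against 237, 237 and 230.1 CPM in KO cohort WT libraries, clear of each other, and in the remaining RH libraries it had 323, 399, 346 and 271 CPM in RH HET and 300.2, 445 and 271 CPM in RH HOMO. The log2 difference between the wild types was 0.58 ± 0.16 (SE; edgeR adjusted p = 0.0439), where 3.17% of all tested genes were called higher and 1.88% lower. The call was lost without any 1 of KO cohort WT 1, 2 or 3 or RH cohort WT 1 or 2, with adjusted p between 0.102 and 0.156, with RH cohort WT 1 counted in the KO cohort (0.596) and with the mitochondrial share as a term (0.601). All RH cohort WT libraries lay above all KO cohort WT libraries in 8 of the 37 genes (21.6%, against 17.4% of all tested genes) and below them in 11 (29.7%, against 16.8%), among them Sos1 (-0.54 ± 0.16), Cr2 (-0.44 ± 0.14) and Pik3r1 (-0.48 ± 0.17). Without RH cohort WT 1 these 3 were at -0.48, -0.33 and -0.38, and none was called. Without RH cohort WT 3 all 3 were called lower, at -0.69 for Sos1, -0.64 for Cr2 and -0.64 for Pik3r1 (edgeR adjusted p between 0.00906 and 0.0383). Cohort, batch and mouse line cannot be told apart here.

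In some libraries the levels of the 37 genes varied with exon length, taken over the union of all annotated exons of a gene. In RH HOMO 2 the deviation from the mean of RH HOMO 1 and 3 fell with exon length, with a Spearman rank correlation of -0.765 over the 37 genes and -0.291 over 16461 genes with a length, all points coming from the same 3 libraries. The 18 longest genes had a median deviation of -0.54 and the 18 shortest 0.06. Nfatc3 (exon union 11726 bases, deviation -0.99) and Prkcb, protein kinase C beta (7651 bases, -0.96), were at the low end. Cd72 (3422 bases) and Dok3 (2459 bases), each at 0.64, were at the high end, and Cd79b (1431 bases) was at 0.47. RH HOMO 2 was the lowest of its group in 20 of the 37 genes and the highest in 13. Such counts were not particular to it, since KO cohort WT 1 was the lowest of its group in 25 and RH cohort WT 3 the highest in 25. The share over all tested genes was not computed.

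Across libraries and contrasts the rank correlation of the 37 genes with length differed in size and sign. Set against the rest of its group, it was -0.479 for RH cohort WT 1, -0.290 for RH cohort WT 2 and 0.727 for RH cohort WT 3. Over the 16461 genes these libraries had -0.118, -0.0816 and 0.160. RH HOMO 1 was at 0.616 and RH HOMO 3 at 0.789 (0.115 and 0.277 over the 16461 genes), each against a mean that includes RH HOMO 2. Over the 37 genes the correlation ran from -0.419 (RH HET 2) to 0.360 (RH HET 1) in RH HET, with 0.0024 for RH HET 3. In KO it ran from -0.245 to 0.362 and in KO cohort WT from -0.181 to 0.124. For the group contrasts it was -0.191 for KO minus KO cohort WT, 0.421 for RH HET minus RH cohort WT, -0.248 for RH HOMO minus RH cohort WT, -0.628 for RH HOMO against RH HET, -0.666 for RH cohort WT minus KO cohort WT, and -0.0887 for the effect in RH HOMO minus that in KO. For the group contrasts no correlation over all genes was computed. RH HOMO 2 had the highest share of counts from ribosomal protein genes (8.07%, other libraries 3.45% to 6.30%). RH cohort WT 1 and 2 had the highest mitochondrially encoded shares (7.34% and 7.15%, other libraries 3.43% to 5.84%). With the mitochondrial share as a term, the median of the 37 genes was -0.12 in RH HET and -0.17 in RH HOMO, and Cd72 was called higher in RH HOMO (0.91, edgeR adjusted p = 0.0166).

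**Figure D5:**
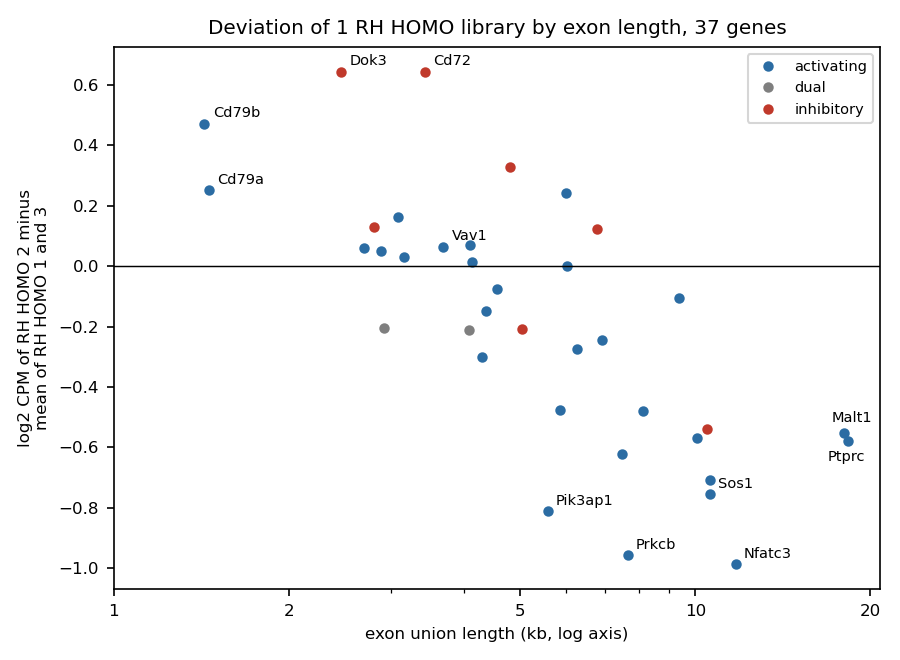
Log2 CPM of RH HOMO 2 minus the mean of RH HOMO 1 and 3 for each of the 37 genes, against exon union length in kb on a log axis, coloured by role. Long genes such as Nfatc3 (-0.99) and Prkcb (-0.96) lie low and short genes such as Cd79b (0.47) and Dok3 (0.64) lie high, with a rank correlation of -0.765.

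Means below are ± SD over 3 libraries a group, and differences are log2 ± SE. Of 86 further genes listed with the pathway, as 48 other components, 20 other inhibitors and 18 activation response genes, 84 were tested. The 48 other components had 0 calls in KO, RH HET and RH HOMO. These lists were chosen with earlier results of these data known, so how the calls fall among them is not a result. In KO, where 0.572% of all tested genes were called higher and 0.729% lower, 2 of the 84 rose, the lipid phosphatase gene Inppl1 (76.6 ± 12.4 CPM in KO and 25.4 ± 1.45 CPM in KO cohort WT; 1.59 ± 0.15, edgeR adjusted p = 0.0000512) and the inhibitory Fc receptor gene Fcgr2b (226 ± 8.86 CPM in KO and 177 ± 3.31 CPM in KO cohort WT; 0.35 ± 0.08, edgeR adjusted p = 0.0301). Sh2d1b1 fell in KO (1.31 ± 0.160 CPM in KO and 8.19 ± 1.86 CPM in KO cohort WT, log2 difference -2.65 ± 0.28, edgeR adjusted p = 0.000121). It was listed with the other inhibitors, though it encodes an adaptor of SLAM family receptors. The Fcgr2b call in KO was lost without any 1 of the 6 libraries, with adjusted p between 0.0547 and 0.128.

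In RH HOMO, 2 of the 84 rose and 1 fell, where 0.578% of all tested genes were called higher and 0.994% lower. Fcgr2b had 284 ± 27.2 CPM in RH HOMO and 164 ± 3.85 CPM in RH cohort WT (0.79 ± 0.08; edgeR adjusted p = 0.000151). Cd86, a costimulatory ligand that receptor signalling induces, had 173 ± 16.8 CPM in RH HOMO and 132 ± 15.4 CPM in RH cohort WT (0.39 ± 0.09; edgeR adjusted p = 0.0496). Sh2d1b1 had 1.58 ± 0.616 CPM in RH HOMO and 6.04 ± 1.41 CPM in RH cohort WT (-1.92 ± 0.27; edgeR adjusted p = 0.00155). In RH HET 0 of the 84 were called by edgeR, with Fcgr2b at 0.43 ± 0.07 (adjusted p = 0.0578) and 9 higher (10.7%) and 2 lower (2.38%) at an unadjusted p under 0.05, where 3.48% of all tested genes were higher and 3.7% lower. The Cd86 call in RH HOMO was lost in 10 of 16 alternatives (edgeR adjusted p between 0.0530 and 0.450), among them the omission of RH HOMO 1 or 3 or RH cohort WT 1 or 2. Fitted to only the libraries compared, Fcgr2b (adjusted p = 0.0714) and Sh2d1b1 (0.0852) were not called in RH HOMO either.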

How the data were processed

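Read counts per gene symbol were deposited by the authors as whole numbers for 48593 genes, with 1 column for each of 16 libraries. CASAVA 1.8, HISAT2, featureCounts and build mm10 stand in the submitters' processing notes; HISAT2 and featureCounts versions, the annotation and the strand setting were not given. The TruSeq v2 kit does not mark strand; it is named in the labels' protocols.

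In R 4.3.3, edgeR 4.0.16 kept 16606 genes by filterByExpr, scaled by TMM and fitted 5 group means to all 16 libraries by quasi-likelihood, leaving 11 residual degrees of freedom. P-values were adjusted by Benjamini-Hochberg over all tested genes, with calls at an adjusted p under 0.05. The code was tested on simulated data. Spearman correlations within groups were 0.977 to 0.991, and no pair was merged.

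The 37 genes and all lists were chosen with earlier results of these data known. The rule gives values per library for every called gene, the 4 with the smallest p in each genotype and 6 core genes, and names up to 4 called pathway genes a comparison. Values of other genes were chosen after they were seen. Positions and exon lengths come from GENCODE M21 (GRCm38). Alternatives used limma 3.58.1, DESeq2 1.42.0, other scalings and filters, a mitochondrial term and fewer libraries.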

Additional observations from a re-analysis of the deposited data

Results flagged for a closer look

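RH HET 2 lay far below the other 3 RH HET libraries for 5 of the 37 genes tested in that group, with a gap to the nearest library of 0.868 to 0.955 of the group's range, above Dixon's 95% critical value. Chance alone sets apart about 1 in 20 such groups if they are independent, but all 5 genes come from the same library. The rule was not run over all tested genes, so no share stands beside this count. RH HET 2 deviated with exon length, at a rank correlation of -0.419 over the 37 genes and -0.218 over 16461 genes. It was the lowest of its group in 21 of the 37 genes. The RH HET 2 level was 212 CPM for Btk, against 239 to 240.5 CPM in the others, and 654 CPM for Plcg2, against 767 to 784 CPM. It was 1217 CPM for Ptprc (1525 to 1554 CPM in the others), 68.6 CPM for Pik3r1 (94.1 to 97.3 CPM) and 242 CPM for Nfatc3 (320.0 to 332 CPM).

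Of the other pathway genes, 2 had effects that differed between RH HOMO and KO by the test of the difference itself (edgeR quasi-likelihood, Benjamini-Hochberg). For Cd86 the effect in RH HOMO minus that in KO was 0.69 (adjusted p = 0.0418), from log2 differences of 0.39 in RH HOMO and -0.30 in KO, with all 3 libraries of each genotype outside their wild type. For Inppl1 it was -1.04 (adjusted p = 0.0427), from 0.55 in RH HOMO and 1.59 in KO, again with no overlap. The Cd86 call was lost in 10 of the 12 fits that left out 1 library (adjusted p between 0.0803 and 0.167) and held without RH HOMO 2 or RH cohort WT 3. The Inppl1 call was lost in 9 of 12 (adjusted p between 0.0656 and 0.138) and held without KO 3, RH HOMO 2 or RH HOMO 3. Both calls were also lost with RH cohort WT 1 counted in the KO cohort (edgeR adjusted p = 0.240 for Cd86 and 0.100 for Inppl1). The mitochondrial term (0.0787 and 0.0734) and the fit of only the libraries compared (0.0909 and 0.0747) lost them too. Cd86 was at 121 to 150 CPM in RH cohort WT and 150 to 157 CPM in KO cohort WT, and these levels enter its contrast.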

How the results depend on the processing

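Of the genes recomputed under each alternative, Pik3r1 changed sign between the wild types, at 0.057 with the mitochondrial term, and the median of the 37 genes changed sign in 3 comparisons. In KO, where edgeR called 0 higher and 1 lower, DESeq2 called 1 higher and 2 lower, limma-voom 2 higher and 3 lower, the fit of only the libraries compared 1 higher and 3 lower, and the mitochondrial term 2 lower. Leaving out 1 library gave 0 to 1 lower in KO, with 0 without KO 1. In RH HET the median of 0.04 became -0.12 with the mitochondrial term. In RH HOMO limma-voom called 1 lower, and the mitochondrial term 1 higher with a median of -0.17. For the effect in RH HOMO minus that in KO, with a median of 0.06, limma-voom called 2 lower with a median of 0.15, the mitochondrial term gave -0.0087, and the omission of both RH cohort WT 1 and RH HOMO 2 gave 0.13. Leaving out 1 library gave medians of -0.015 to 0.10 there, the lowest without RH HOMO 3.

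For RH cohort WT minus KO cohort WT, where edgeR called 1 higher and 0 lower, DESeq2 called 3 higher and 3 lower, limma-voom 5 and 11, and the fit of only the libraries compared 2 and 6. No count filter gave 4 lower, a filter of 1 CPM in 3 libraries 1 lower, and the omission of both RH cohort WT 1 and RH HOMO 2 gave 1 lower. Counting RH cohort WT 1 in the KO cohort gave 0 higher, as did the mitochondrial term, with which the median was 0.081 in place of -0.04. Leaving out 1 library gave 0 to 1 higher, with 0 for any library but RH cohort WT 3, and 0 to 3 lower, with 3 without RH cohort WT 3. The cause of these changes was not tested. The joint omission was chosen after seeing the data. No paired analysis was possible because the labels number no replicates, and accession order pairs none. With 3 or 4 libraries a group, the 95% intervals of the 6 core genes spanned -0.38 to 0.46.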
